A study of Mus musculus with 10 samples.

Results

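The genes described here encode the collagens, laminins, nidogens and perlecan, the chains from which basement membranes and collagen fibrils are built, and their RNA was counted in mouse endothelial cells of 3 kinds. A row of the count table was a member when its symbol had the form of a collagen alpha chain (Col, a type number, a and a chain number) or of a laminin chain (Lama, Lamb or Lamc with a number), and Nid1, Nid2 and Hspg2 were added. The rule took 57 of 23284 rows. They fall into 22 basement membrane chains, 11 fibrillar collagens and 24 other collagens, and all 57 passed the criterion for testing, a mean of at least 1 normalized count in at least 1 population. The lymphatic endothelium of pooled lymph nodes (LN-LEC, 4 libraries), the blood endothelium of such nodes (LN-BEC, 3 libraries) and the lymphatic endothelium of the diaphragm (D-LEC, 3 libraries) were freshly isolated from wild-type C57BL/6 (B6) mice of 6 to 8 weeks, with no treatment or transgene named. Cells without CD45 and with CD31 were sorted by the presence (LEC) or absence (BEC) of PDPN. Each library is a pool of cells from several mice, so that the spread between libraries is a spread between pools.

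Basement membranes are thin sheets on which endothelium rests. Laminins are assembled in the cell from an alpha, a beta and a gamma chain and polymerise at the cell surface, type IV collagen forms a second, covalently linked network, and nidogens and the proteoglycan perlecan connect both. Blood vessels have a continuous basement membrane, whereas that of initial lymphatic capillaries is thin and discontinuous. Fibrillar collagens build the load-bearing fibres of the interstitium, and the reticular fibres that run through a lymph node have fibrillar collagen in their core and basement membrane proteins at their surface.

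The genes of the 6 type IV collagen chains lie in pairs whose starts face each other, and the sequence at these starts is shown. Its relation to the levels below was not tested. In the mm9 annotation of the count table, Col4a1 (minus strand) and Col4a2 (plus strand) on chromosome 8 are separated by 2 bases, Col4a4 and Col4a3 on chromosome 1 by 71 bases, and Col4a6 and Col4a5 on chromosome X by 1342 bases. The first 2 sequences run on the plus strand from 50 bases inside a gene to 50 bases inside its partner and are 102 and 171 bases long, and the others are 300-base windows from 250 bases before to 50 bases after the start, on the strand of the gene. Capitals mark matches on either strand to GGGCGG, the GC box. Matches to CCAAT or to the TATA box, spelled TATAAA, are marked as well, and no 2 matches overlap.
Col4a1 and Col4a2, chr8:11312777-11312878: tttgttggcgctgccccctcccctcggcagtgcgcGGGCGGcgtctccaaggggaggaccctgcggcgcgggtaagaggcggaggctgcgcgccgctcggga
Col4a4 and Col4a3, chr1:82583375-82583545: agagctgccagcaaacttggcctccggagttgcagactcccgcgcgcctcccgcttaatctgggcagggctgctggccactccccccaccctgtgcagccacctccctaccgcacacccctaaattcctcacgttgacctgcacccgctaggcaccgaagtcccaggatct
Col4a5, chrX:137909712-137910011: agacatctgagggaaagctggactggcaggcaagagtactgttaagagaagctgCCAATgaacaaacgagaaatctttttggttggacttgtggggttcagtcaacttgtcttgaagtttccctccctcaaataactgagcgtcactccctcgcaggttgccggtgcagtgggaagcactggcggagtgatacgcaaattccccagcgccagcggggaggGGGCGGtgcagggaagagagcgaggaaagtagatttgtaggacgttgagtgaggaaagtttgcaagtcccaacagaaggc
Col4a6, chrX:137908570-137908869, minus strand: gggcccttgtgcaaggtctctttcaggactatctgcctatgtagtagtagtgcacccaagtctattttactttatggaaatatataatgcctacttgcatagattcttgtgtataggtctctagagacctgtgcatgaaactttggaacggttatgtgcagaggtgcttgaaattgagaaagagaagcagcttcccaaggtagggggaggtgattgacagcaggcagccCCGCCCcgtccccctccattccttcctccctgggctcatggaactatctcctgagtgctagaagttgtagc
The stretch between Col4a1 and Col4a2 holds 1 GC box, which 28.0% of windows of 102 bases at the starts of 23091 genes also hold, and neither of the other motifs. It has 75.5% G and C. The stretch between Col4a4 and Col4a3 holds none of the motifs, while 39.8% of windows of its length hold a GC box. The Col4a5 window holds 1 GC box and 1 CCAAT box and the Col4a6 window 1 GC box. Over all 57 members, 64.9% of the 300-base windows hold a GC box, 29.8% a CCAAT box and 14% a TATA box, against 45.9%, 38.0% and 13% of the windows of all genes.

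A collagen triple helix needs a glycine in each of its residue triplets, so that the coding sequence repeats in units of 9 bases, and the exon sizes show where the member classes differ in structure. Of the 625 inner exons of the 11 fibrillar collagens, 84.0% had a length divisible by 9 and 48.8% were exactly 54 bases long. For the type IV chains these shares were 45.4% and 4.23% of 284 inner exons, for the laminins, nidogens and perlecan 14.9% and 0.0% of 598, and for all other rows 13.4% and 0.393%. An example of each kind is shown with the GGN glycine codons in capitals, from a fibrillar chain and from the basement membrane chain with which it shares the repeat but not the exon size.
Col3a1, 54 bases, chr1:45382205-45382258: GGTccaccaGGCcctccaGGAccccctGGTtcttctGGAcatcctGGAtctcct
Col4a1, 90 bases, chr8:11247006-11247095, minus strand: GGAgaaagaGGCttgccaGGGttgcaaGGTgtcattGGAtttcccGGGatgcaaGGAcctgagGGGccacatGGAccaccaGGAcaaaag
The Col3a1 exon holds 6 such codons and the Col4a1 exon 10. Only 3 members had exon bases annotated to another row as well: Nid2 with 7.9% of its exon bases and Col9a3 with 8.05%, each against a gene of the opposite strand, and Col7a1 with 0.391%. Fragments on such bases were not counted, since strand was ignored and a fragment over 2 genes was left out.

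Libraries held between 22429940 and 48906070 counted fragments, at which 3 fragments correspond to 0.0613 to 0.134 CPM (counts scaled to the library total). Levels are fragments divided by DESeq2 size factors (normalized counts), given as mean ± SD across libraries, and levels of different genes are compared only per kb of exon. Lymphatic markers (Prox1, Lyve1, Pdpn, Reln and Flt4) summed to 94668 to 119449.9 normalized counts in LN-LEC and 387239 to 415551 in D-LEC. In LN-BEC they summed to 2891 to 7955, with LN-BEC replicate 3 the highest. Blood endothelial markers (Nrp1, Flt1, Vwf, Notch4 and Emcn) summed to 85991 to 90435 in LN-BEC, 1309 to 2239.9 in LN-LEC and 5623 to 8005 in D-LEC. Of these 5 blood markers, 2 were higher in LN-LEC than D-LEC and 2 in D-LEC than LN-LEC. The larger D-LEC sum was therefore not shared by all of them. The defining markers thus matched the labels, and the 4 markers of all endothelium (Pecam1, Cdh5, Tie1 and Kdr) summed to 80245 or more in every library. Pdpn and Pecam1 encode PDPN and CD31, on which the cells were sorted, so their part in this match was set by the sort. Markers of other cells were lower but present. All 8 skeletal muscle markers and all 5 mesothelial markers were higher in D-LEC than in either other population, with sums of 1118 to 1683 and 587 to 1817 in D-LEC, 30.8 to 50.6 and 26 to 77.3 in LN-LEC, and 83 to 105 and 22.5 to 131 in LN-BEC. A few of these calls were lost with a library left out, and the DESeq2 test called 7 of the 8 muscle markers over LN-LEC. Of 8 pericyte and smooth muscle markers, 4 were higher and 1 lower in LN-BEC than LN-LEC, and 7 were higher and 1 lower in LN-BEC than D-LEC, with sums of 3819.6 to 5855 in LN-LEC, 5802 to 7649 in LN-BEC and 1004 to 1389 in D-LEC. Of 8 haematopoietic markers, 5 were higher in LN-BEC than LN-LEC and 6 than in D-LEC, with sums of 549 to 879.5 in LN-BEC, 88.2 to 126 in LN-LEC and 24 to 68.1 in D-LEC. No member of these lists stood at 0 in all libraries of every population except Ccl21a, which was listed at 0 throughout, and Myh4 was at 0 in all LN-BEC libraries.

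In every comparison, members were called in both directions, and each population had chains that were higher than in both others. In LN-BEC these were the main type IV collagens, Lama5, Lama3, perlecan and Col15a1. In LN-LEC they were Col12a1, Col27a1, Col14a1, Col22a1, Col4a5 and Lamb3, and in D-LEC Col23a1, Col18a1, Lama4, Col5a2 and Lamb1. Not all were particular to a population. Between the LEC populations, Col4a5 differed by a fold of 1.6 with overlapping libraries and Lama4 by a fold of 1.57. With edgeR's quasi-likelihood test (adjusted p under 0.05 over 15324 genes), 14 of the 57 members were higher in LN-LEC than LN-BEC, where 19.8% of all genes tested were, and 16 were higher in LN-BEC, where 18.4% of all genes were. Between LN-LEC and D-LEC, 16 members were higher in LN-LEC (24.1% of all genes) and 18 in D-LEC (21.7% of all genes). Between D-LEC and LN-BEC, 14 were higher in D-LEC (22.5% of all genes) and 19 in LN-BEC (25.6% of all genes). As shares of the 57 members these were 24.6% and 28.1%, 28.1% and 31.6%, and 24.6% and 33.3%, so that all 6 lay within 10 percentage points of the background. The comparisons share libraries, and their values are not independent. The median log2 fold change over the members was -0.31 for LN-LEC over LN-BEC, 0.02 for LN-LEC over D-LEC and -0.45 for D-LEC over LN-BEC, beside -0.008, 0.025 and -0.045 over all genes tested.

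Large differences took a greater share of the members than of all genes in each of the 6 directions. The shares higher in D-LEC rest on only 4 and 5 members and lie near those of all genes. At a fold of at least 5, 11 members (19.3%, against 4.5% of all genes) were higher in LN-LEC and 7 (12.3%, against 5.35% of all genes) in LN-BEC. Against D-LEC, 12 were higher in LN-LEC (21.1%, against 8.13% of all genes), and 4 were higher in D-LEC than LN-LEC (7.02%, against 4.03% of all genes). D-LEC exceeded LN-BEC in 5 (8.77%, against 4.84% of all genes) and was exceeded by it in 11 (19.3%, against 10.4% of all genes). The 12 and the 11 include Col19a1, which had no fragment in D-LEC and lower bounds of only 1.34-fold and 1.6-fold. The 12 also include Col28a1, whose counting interval reached down to 3.84. A member was higher than in both other populations in 9 cases for LN-LEC (9.74% of all genes), 12 for LN-BEC (11.6% of all genes) and 10 for D-LEC (13.8% of all genes). Basement membrane chains, 38.6% of the members, were 8 of the 12 LN-BEC genes, 3 of the 9 LN-LEC genes and 4 of the 10 D-LEC genes. Because the RNA came from bulk populations, fewer cells of a type that expresses a gene and less RNA of it per cell cannot be told apart in any of these values.

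**Figure D1:**
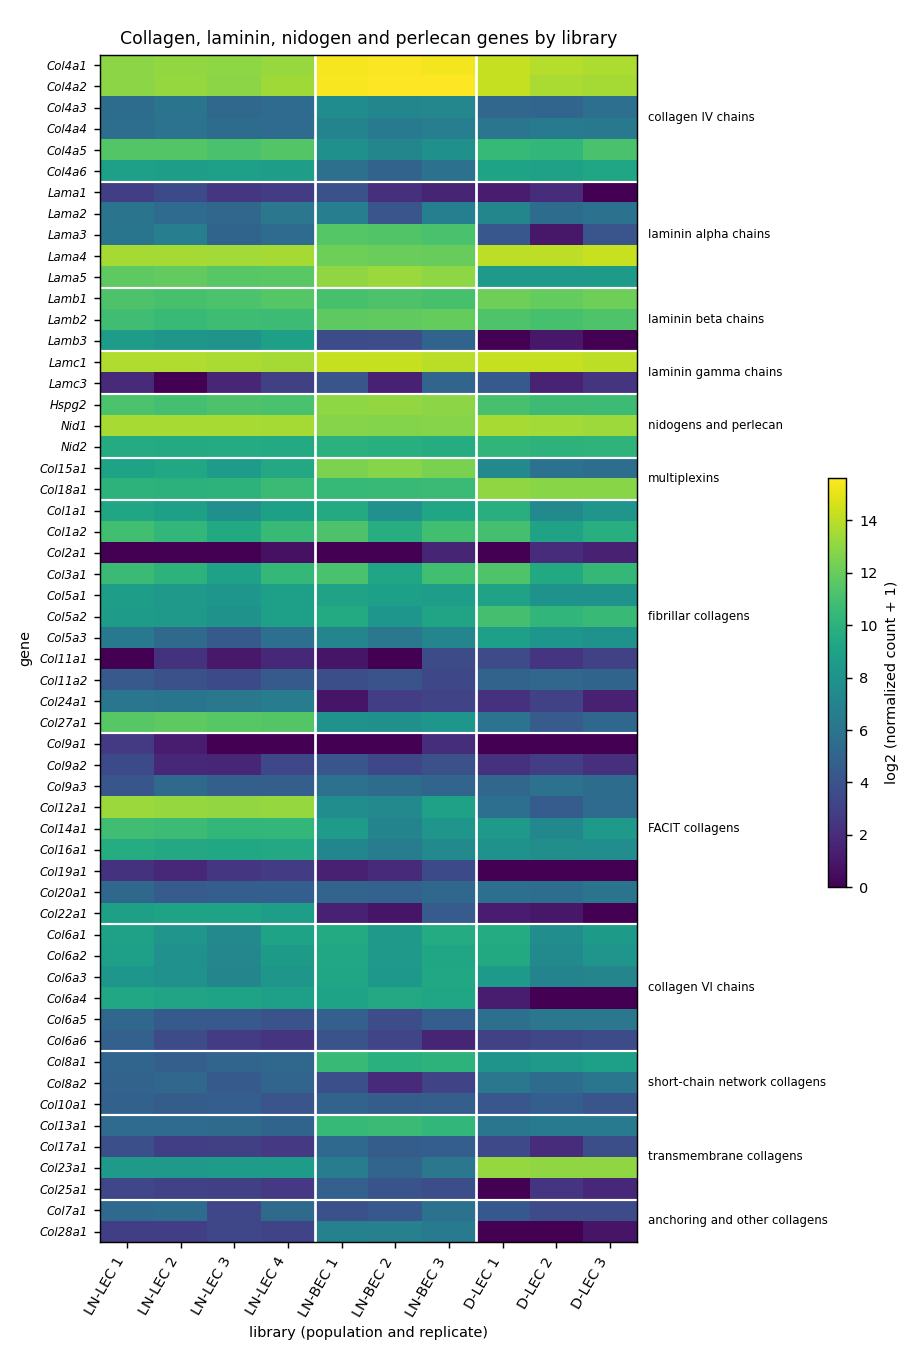
Heat map of log2 (normalized count + 1) for 56 members (rows, by class) in the 10 libraries (columns, by population and replicate). Col4a1 and Col4a2 are brightest in LN-BEC, Col12a1 and Col27a1 are brightest in the 4 LN-LEC columns, Col23a1 and Col18a1 are brightest in D-LEC, and Col6a4 is dark in D-LEC.

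The pairs of type IV collagens differed in profile, and Col4a3 and Col4a4 also differed from each other. Col4a1 and Col4a2, whose chains form the trimer found in nearly all basement membranes, were the most abundant members per kb in LN-BEC. Normalized counts of Col4a1 were 7693, 8699, 8189.9 and 9568 (LN-LEC), 43714, 47732 and 41810.1 (LN-BEC) and 19346, 14951 and 13179 (D-LEC). Those of Col4a2 were 7744, 8965, 7636 and 10835 (LN-LEC), 46497, 50671 and 49857 (LN-BEC) and 19496, 12727 and 11976 (D-LEC). No library of LN-BEC overlapped another population for either gene, and D-LEC lay above LN-LEC throughout. LN-BEC exceeded LN-LEC on the log2 scale by 2.36 ± 0.12 (adjusted p = 4.2e-09) for Col4a1 and by 2.46 ± 0.17 (adjusted p = 1.2e-07) for Col4a2 (± SE of the fit), folds of 5.15 and 5.51. Against D-LEC the differences were 1.5 ± 0.13 (adjusted p = 5.6e-07) and 1.74 ± 0.18 (adjusted p = 4.6e-06), and D-LEC exceeded LN-LEC by 0.87 ± 0.12 (adjusted p = 5.2e-05) and 0.72 ± 0.16 (adjusted p = 0.0031).

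The partners were measured at almost equal levels. Per kb, the level of Col4a1 relative to that of Col4a2 was 0.952 ± 0.0758 (LN-LEC), 0.881 ± 0.0575 (LN-BEC) and 1.06 ± 0.0891 (D-LEC). Only the D-LEC and LN-BEC libraries did not overlap, with an exact two-sided permutation p of 0.1, the smallest that 3 against 3 libraries allow. For the comparisons of 4 with 3 libraries the smallest p is 0.0571, and the p-values here were 0.286 against LN-BEC and 0.171 against D-LEC. Adjusted over the 18 tests of chain shares and ratios, all were above 0.05, as they must be at these numbers of libraries.

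Col4a5 and Col4a6 showed the opposite order. Their chains form a network known from the basement membranes of smooth muscle and skin. Normalized counts of Col4a5 were 2799, 2749.7, 2212 and 2806 (LN-LEC), 230.2, 141 and 227 (LN-BEC) and 1425, 1295 and 2287 (D-LEC). For Col4a6 they were 451, 424, 451 and 428 (LN-LEC), 53.4, 31.1 and 56.7 (LN-BEC) and 527, 492 and 613 (D-LEC). Every LEC library of either tissue was above every LN-BEC library for both genes. Col4a5 was higher than in LN-BEC by 3.75 ± 0.25 (adjusted p = 6.2e-07) on the log2 scale in LN-LEC and by 3.07 ± 0.25 (adjusted p = 2.3e-06) in D-LEC, and Col4a6 by 3.24 ± 0.18 (adjusted p = 8.2e-09) and 3.53 ± 0.19 (adjusted p = 2.9e-09). Between the LEC populations, Col4a5 was higher in LN-LEC by 0.68 ± 0.21 (adjusted p = 0.024), although D-LEC replicate 3 fell among the LN-LEC libraries. The difference of Col4a6, 0.29 ± 0.15 (adjusted p = 0.13) in the direction of D-LEC, did not pass the threshold with all libraries. It passed without LN-BEC replicate 2 (adjusted p = 0.047). The call on Col4a5 is not firm, since its adjusted p rose to between 0.053 and 0.1 when LN-LEC replicate 1, 2 or 4 or D-LEC replicate 1 or 2 was left out. Of the summed per-kb level of all type IV chains, Col4a5 made up 13 ± 1.44% in LN-LEC, 5.36 ± 2.47% in D-LEC and 0.215 ± 0.0622% in LN-BEC.

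Col4a3 and Col4a4, chains of the network of the glomerular basement membrane, were scarce in all populations. Their means were 47.2 ± 12 and 49.1 ± 7.52 normalized counts (LN-LEC), 161 ± 26.6 and 108 ± 19.2 (LN-BEC) and 39.6 ± 9.43 and 79.2 ± 9.43 (D-LEC). Both were higher in LN-BEC than LN-LEC, by 1.76 ± 0.26 (adjusted p = 7.7e-05) and 1.12 ± 0.23 (adjusted p = 0.0014). Col4a3 was higher in LN-BEC than D-LEC as well, by 2.02 ± 0.28 (adjusted p = 4.6e-05), whereas Col4a4 was not called there (0.45 ± 0.24, adjusted p = 0.15). Only Col4a4 was also higher in D-LEC than LN-LEC, by 0.68 ± 0.23 (adjusted p = 0.029), a call lost without LN-LEC replicate 1, 3 or 4 or D-LEC replicate 2 or 3 (adjusted p between 0.055 and 0.097). Over the class, all 6 chains were called between LN-LEC and LN-BEC, 2 (33.3%) higher in LN-LEC and 4 (66.7%) in LN-BEC. Of all genes tested, 19.8% and 18.4% were called in these directions. Taken by level, type IV chains made up 79.4 ± 2.67% of the summed per-kb level of all collagens in LN-BEC, with 77, 82.3 and 78.9% in its libraries. The share was 50.9 ± 3.73% in LN-LEC and 53.9 ± 1.95% in D-LEC. LN-BEC lay above both without overlap (exact permutation p = 0.0571 against LN-LEC and 0.1 against D-LEC, each the smallest possible), whereas the LEC populations overlapped (p = 0.229).

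**Figure D2:**
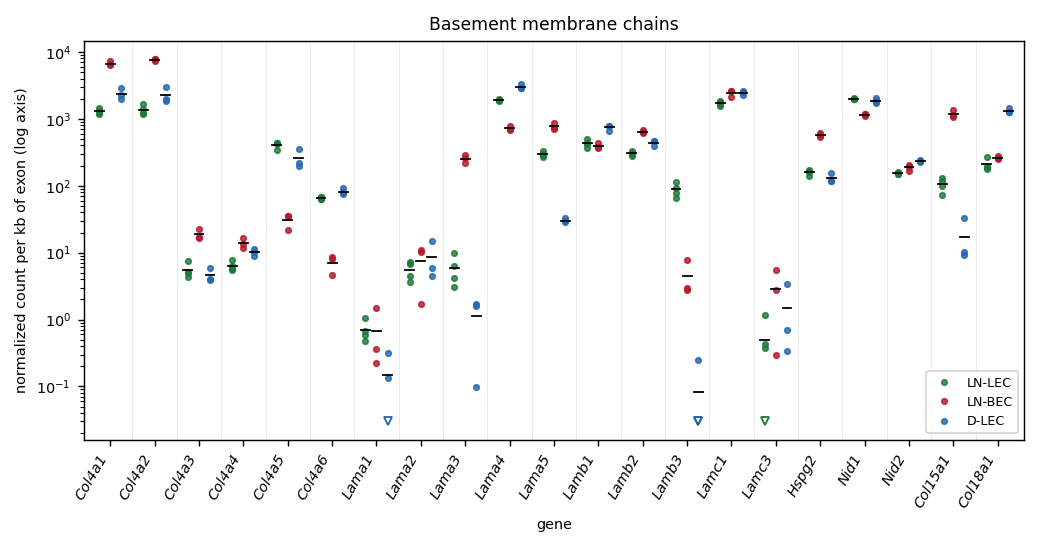
Normalized count per kb of exon (log axis) of 21 basement membrane chains in each library, with points for libraries, black lines for population means and open triangles at the foot for libraries with no fragment. The LN-BEC points are highest for Col4a1, Col4a2, Lama3, Lama5, Hspg2 and Col15a1 and lowest for Col4a5, Col4a6, Lama4 and Nid1, and the D-LEC points are highest for Lama4 and Col18a1.

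The laminin alpha chain determines which receptors a laminin binds, and 3 alpha chains separated the populations. Lama4 is the alpha chain made by nearly all endothelium. Its normalized counts were 11629.8, 11904, 11054 and 11572 (LN-LEC), 4718, 4240.1 and 4155 (LN-BEC) and 17284, 17462 and 20214 (D-LEC). The populations did not overlap, in the order D-LEC, LN-LEC and LN-BEC. D-LEC exceeded LN-LEC by 0.65 ± 0.08 (adjusted p = 2.7e-05) on the log2 scale, and LN-LEC exceeded LN-BEC by 1.42 ± 0.09 (adjusted p = 2.3e-08). The gene was higher by 2.06 ± 0.09 (adjusted p = 6.9e-10) in D-LEC than LN-BEC.

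Lama5, whose chain is found in the basement membranes of mature capillaries and venules, ran the other way. Normalized counts were 3383, 3735, 3049.6 and 3226 (LN-LEC), 8338, 9866 and 8111 (LN-BEC) and 329, 333 and 369 (D-LEC). Each LN-BEC library was above each LN-LEC library, and these were above all D-LEC libraries. LN-BEC exceeded LN-LEC by 1.37 ± 0.10 (adjusted p = 6.3e-08), a fold of 2.59. Its excess over D-LEC was 4.68 ± 0.12 (adjusted p = 7e-12), a fold of 25.6, and LN-LEC exceeded D-LEC by 3.30 ± 0.11 (adjusted p = 5.5e-11), a fold of 9.86. Per kb, Lama5 stood at 770 ± 83.8 and Lama4 at 723 ± 50.2 in LN-BEC, whereas in D-LEC they stood at 30.2 ± 1.95 and 3030 ± 272.

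Lama3, best known as the alpha chain of the laminin under epithelium, was an LN-BEC gene. Its normalized counts were 66.1, 102, 31.7 and 43.4 (LN-LEC), 2953, 2669 and 2255 (LN-BEC) and 17.7, 1 and 16.5 (D-LEC). The lowest LN-BEC library was far above the highest of the others. The excess over LN-LEC was 5.47 ± 0.40 (adjusted p = 4.7e-06) and that over D-LEC 7.81 ± 0.54 (adjusted p = 2.5e-06) on the log2 scale, and LN-LEC exceeded D-LEC by 2.34 ± 0.60 (adjusted p = 0.012). Lama1 and Lama2, the chains of embryonic and of muscle basement membranes, had means of at most 6.7 and 82.7 normalized counts and were called in no comparison.

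As shares of the summed per-kb level of the 5 alpha chains, Lama4 made up 86.1, 85.2, 86.9 and 86.6% in the LN-LEC libraries, 43.1, 38.4 and 42.2% in LN-BEC and 98.4, 98.8 and 98.8% in D-LEC. Lama5 made up 13.3 ± 0.665%, 43.9 ± 3.47% and 0.984 ± 0.0225%, and Lama3 0.262 ± 0.124%, 14.4 ± 1.22% and 0.0364 ± 0.0293%. Thus Lama4 was most of the alpha chain RNA in both LEC populations, while LN-BEC held Lama4 and Lama5 at like levels with Lama3 beside them. For Lama4 and Lama5 no population overlapped another, and the exact permutation p was 0.0571 in each comparison with LN-LEC and 0.1 between D-LEC and LN-BEC, the smallest these designs can give (0.129 and 0.138 after adjustment over 18 tests).

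The abundant beta chains differed by at most 1.07 on the log2 scale. Lamb1 and Lamb2 are the common beta chains, the latter known from the basement membranes of mature vessels, muscle and glomeruli. Normalized counts of Lamb1 were 2476, 2137, 2396 and 2932 (LN-LEC), 2194, 2504 and 2155 (LN-BEC) and 4579.8, 3853 and 4582 (D-LEC). For Lamb2 they were 1864, 1561, 1764 and 1656 (LN-LEC), 3480.5, 3569.9 and 3836 (LN-BEC) and 2601, 2192 and 2593 (D-LEC). Lamb1 was separated only in D-LEC, and Lamb2 was separated in all populations. D-LEC exceeded LN-LEC by 0.78 ± 0.11 (adjusted p = 5.1e-05) and LN-BEC by 0.92 ± 0.12 (adjusted p = 2.2e-05) in Lamb1, whereas LN-LEC and LN-BEC differed by 0.14 ± 0.11 (adjusted p = 0.36). Lamb2 was highest in LN-BEC, by 1.07 ± 0.09 (adjusted p = 3.8e-07) over LN-LEC and 0.57 ± 0.10 (adjusted p = 0.00025) over D-LEC. Of the summed per-kb level of the beta chains, Lamb2 made up 61.7 ± 2.46% in LN-BEC, 37.2 ± 3.43% in LN-LEC and 36.8 ± 0.0586% in D-LEC. The LN-BEC libraries were separate from the others (exact permutation p = 0.0571 and 0.1), while the LEC populations overlapped (p = 0.914).

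Lamb3 is the beta chain that joins Lama3 in the epithelial laminin, and it was an LN-LEC gene. Normalized counts of Lamb3 were 377, 314, 268 and 468 (LN-LEC), 11.4, 12.1 and 31.5 (LN-BEC) and 0, 1 and 0 (D-LEC). LN-LEC did not overlap the other populations, and D-LEC was at or near 0. Lamb3 exceeded LN-BEC by 4.32 ± 0.38 (adjusted p = 8e-07) on the log2 scale. In all D-LEC libraries together 1 fragment of Lamb3 was counted against 1520 in LN-LEC, a ratio of 1130 per size factor with a 95% counting interval of 203 to 44700 (exact, counting error only), and the adjusted p was 3.5e-08. Lamb3 accounted for 10.6 ± 1.76% of the beta chain level in LN-LEC, where Lama3 was 0.262 ± 0.124% of the alpha chain level. These partner chains were therefore highest in different populations: Lama3 was higher in LN-BEC than in both others, and Lamb3 was higher in LN-LEC than in both others.

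Lamc1, the gamma chain of most laminins, was the most abundant laminin chain per kb in LN-BEC. Its normalized counts were 14109, 13708, 12604 and 11864 (LN-LEC), 19672, 19738 and 16259 (LN-BEC) and 19205, 19607 and 17163 (D-LEC). All LN-LEC libraries were below all others, and LN-BEC and D-LEC overlapped. It was lower in LN-LEC by 0.49 ± 0.10 (adjusted p = 0.0012) against LN-BEC and 0.49 ± 0.10 (adjusted p = 0.00098) against D-LEC. Lamc3 had means of at most 17 normalized counts and was called in no comparison with all libraries. Without LN-BEC replicate 2 it was higher in LN-BEC than LN-LEC (adjusted p = 0.028).

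**Figure D3:**
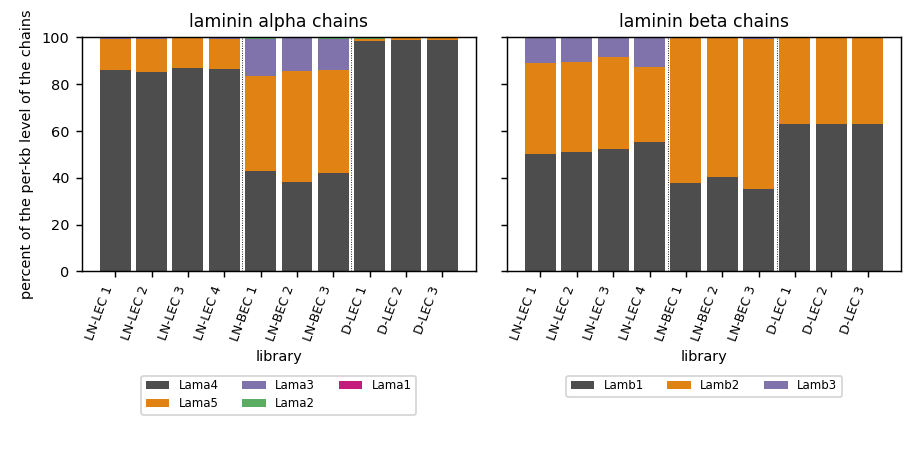
Stacked bars of the share, in percent, of each chain in the summed per-kb level of the laminin alpha and beta chains, 1 bar per library. Lama4 fills 85.2% to 86.9% of the alpha bar in LN-LEC, 38.4% to 43.1% in LN-BEC and 98.4% to 98.8% in D-LEC, and Lamb3 is visible in the LN-LEC bars.

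The nidogens differed by at most 0.81 on the log2 scale. Nid1, the main nidogen, had normalized counts of 12047, 12433, 12116 and 11886 (LN-LEC), 7031, 6698 and 7218 (LN-BEC) and 12318, 11132 and 10503 (D-LEC). The LEC populations overlapped and LN-BEC was below both. LN-LEC exceeded LN-BEC by 0.81 ± 0.08 (adjusted p = 1.5e-06) and D-LEC exceeded it by 0.69 ± 0.08 (adjusted p = 9.4e-06). Nid2 had 769, 744, 796 and 744 (LN-LEC), 991, 942 and 815 (LN-BEC) and 1194, 1092 and 1138 (D-LEC). Its order was D-LEC, LN-BEC and LN-LEC without overlap, with differences of 0.56 ± 0.09 (adjusted p = 0.00014) between D-LEC and LN-LEC and only 0.25 ± 0.09 (adjusted p = 0.04) between LN-BEC and LN-LEC, a call that was lost without LN-LEC replicate 1, 2 or 4, LN-BEC replicate 1 or 2, or D-LEC replicate 3 (adjusted p between 0.051 and 0.19). The excess of D-LEC over LN-BEC, 0.31 ± 0.09 (adjusted p = 0.015), was lost without LN-BEC replicate 3 (0.076).

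Hspg2 encodes perlecan, the large heparan sulfate proteoglycan of basement membranes. Normalized counts were 2376, 1993, 2440.1 and 2301 (LN-LEC), 8083, 8590.1 and 7676 (LN-BEC) and 2167, 1674 and 1691 (D-LEC). LN-BEC was separate from the LEC populations, which overlapped. LN-BEC exceeded LN-LEC by 1.82 ± 0.10 (adjusted p = 9e-09) and D-LEC by 2.15 ± 0.12 (adjusted p = 3.1e-09), folds of 3.53 and 4.43, while the excess of LN-LEC over D-LEC was 0.33 ± 0.10 (adjusted p = 0.02) and lost its call without LN-LEC replicate 1 or 3 or D-LEC replicate 2 or 3 (adjusted p between 0.053 and 0.094).

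The multiplexins, collagens that carry heparan or chondroitin sulfate chains and lie at the edge of the basement membrane, had opposite profiles. Col15a1, found at the outer face of vascular basement membranes, had normalized counts of 528, 621, 389 and 697 (LN-LEC), 6058, 7118 and 5737 (LN-BEC) and 173, 55.1 and 48.7 (D-LEC). No populations overlapped, and LN-BEC exceeded LN-LEC by 3.48 ± 0.37 (adjusted p = 8.4e-05) and D-LEC by 6.16 ± 0.48 (adjusted p = 9.4e-06), folds of 11.1 and 71.6. Col18a1, from which endostatin is cleaved, had 1103, 1039.7, 1088 and 1584 (LN-LEC), 1438, 1515 and 1593 (LN-BEC) and 8363, 7271 and 7369 (D-LEC). D-LEC was well above the rest, by 2.65 ± 0.13 (adjusted p = 2.2e-09) over LN-LEC and 2.33 ± 0.15 (adjusted p = 1.5e-08) over LN-BEC. LN-LEC replicate 4, at 1584, fell among the LN-BEC libraries, and without it the difference of LN-BEC over LN-LEC passed the threshold (0.31 ± 0.13 with all libraries, adjusted p = 0.076, and 0.00057 without it). Over the 22 basement membrane chains, 6 were higher in LN-LEC and 11 in LN-BEC, 7 in LN-LEC and 9 in D-LEC, and 7 in D-LEC and 9 in LN-BEC, with 5, 6 and 6 not called. These were 27.3% and 50%, 31.8% and 40.9%, and 31.8% and 40.9% of the chains, against 19.8% and 18.4%, 24.1% and 21.7%, and 22.5% and 25.6% of all genes. The median log2 fold changes were -0.46, -0.39 and -0.51 for LN-LEC over LN-BEC, LN-LEC over D-LEC and D-LEC over LN-BEC. Some pericyte and haematopoietic markers were also higher in LN-BEC. Across LN-BEC replicates 1, 2 and 3, pericyte and smooth muscle markers summed to 7050.2, 5802 and 7649 normalized counts. Haematopoietic markers summed to 858, 879.5 and 549 in these libraries. The part of such cells in these results was not tested. Between LN-LEC and D-LEC, 6 of 8 pericyte markers were higher in LN-LEC and 1 in D-LEC.

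Among the fibrillar collagens, the chains of types I and III, the bulk of interstitial fibres, varied widely between libraries and were called in no comparison. Col1a2 had normalized counts of 1898, 1311, 707 and 1523 (LN-LEC), 2476, 861 and 1884 (LN-BEC) and 2101, 510.0 and 930.4 (D-LEC). Col3a1 had 1628, 1084, 498 and 1382 (LN-LEC), 2257, 616 and 1930.5 (LN-BEC) and 2547, 711 and 1348 (D-LEC). The libraries of each population were spread widely, and all populations overlapped. The largest of the differences of Col1a2 and Col3a1 was 0.58 ± 0.61 (adjusted p = 0.47) on the log2 scale, for Col1a2 between LN-BEC and D-LEC, so that differences of this size were within the error.

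Fibroblast markers varied between the same libraries. The summed per-kb level of Col1a1, Col1a2 and Col3a1 was 791, 549, 275 and 646 (LN-LEC), 1040, 329 and 836 (LN-BEC) and 1060, 264 and 484 (D-LEC). The 10 fibroblast and reticular cell markers, among them Dcn and Dpt, summed to 6344, 4036, 3467 and 5816 normalized counts in these LN-LEC libraries, 6599, 1569.6 and 6109 in LN-BEC and 5855, 2392 and 4335 in D-LEC. Within each population the libraries had the same order in both sums. Of the 9 markers tested, 1 was higher in LN-BEC than LN-LEC, 2 were higher in LN-LEC than D-LEC and 2 in LN-BEC than D-LEC, Pdgfrb among them each time. The sum of the type IV chains was 2840 to 3640 per kb in LN-LEC, 13900 to 15200 in LN-BEC and 4320 to 6270 in D-LEC. The part of fibroblast RNA in these levels was not tested.

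**Figure D4:**
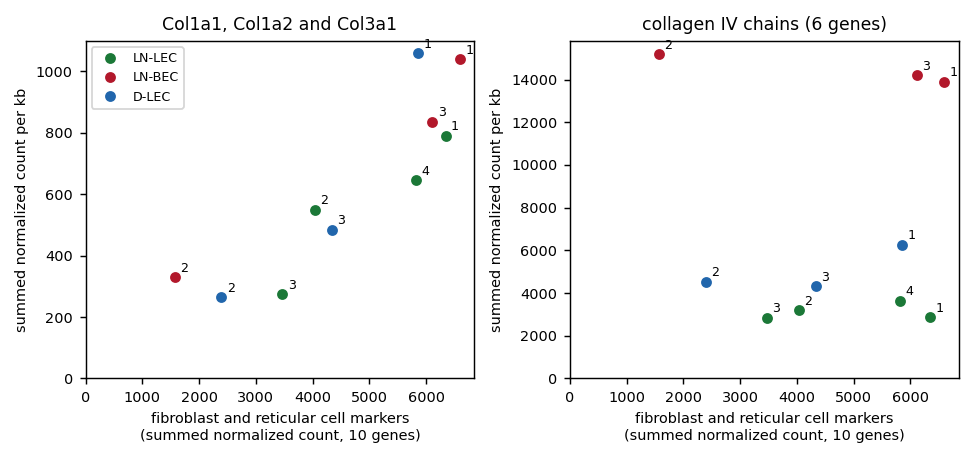
Summed normalized count per kb of Col1a1, Col1a2 and Col3a1 (left) and of the 6 type IV chains (right) against the summed normalized count of 10 fibroblast and reticular cell markers, 1 point per library, coloured by population and numbered by replicate. On the left, libraries with more marker RNA have more type I and III collagen RNA in each population, and on the right the LN-BEC libraries lie between 13900 and 15200 and the other libraries at 6270 or below.

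The fibrillar chains called over both other populations were Col27a1 and Col24a1 in LN-LEC and Col5a2, Col5a3 and Col11a2 in D-LEC. Col27a1, an ancient fibrillar type known from cartilage, had normalized counts of 2980.0, 3489, 2977 and 2829.5 (LN-LEC), 246, 229 and 297 (LN-BEC) and 60.5, 21 and 35.5 (D-LEC). All populations were separate. LN-LEC exceeded LN-BEC by 3.59 ± 0.20 (adjusted p = 3.8e-08) and D-LEC by 6.36 ± 0.25 (adjusted p = 1.3e-09), folds of 12.1 and 81.9. Per kb it was the most abundant fibrillar chain of LN-LEC, at 402 ± 37.8 beside 264 ± 96.9 for Col1a2. Col24a1, which like Col27a1 has 33 inner exons of 54 bases, had 70, 66, 76.9 and 94.9 (LN-LEC), 0.875, 6.05 and 8.4 (LN-BEC) and 3.78, 7.01 and 1.65 (D-LEC). LN-LEC was again separate, by 3.93 ± 0.55 (adjusted p = 5.6e-05) over LN-BEC and 4.23 ± 0.57 (adjusted p = 3.6e-05) over D-LEC.

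Col5a2 and Col5a3 encode chains of type V collagen, which nucleates fibrils. Col5a2 had normalized counts of 375, 352, 257 and 455 (LN-LEC), 752, 299 and 564 (LN-BEC) and 2119, 1246 and 1499 (D-LEC), and Col5a3 had 79.1, 40.6, 20.4 and 50.9 (LN-LEC), 137, 70.9 and 139.7 (LN-BEC) and 453, 293 and 265 (D-LEC). D-LEC was above both other populations without overlap in each gene. Col5a2 was higher by 2.14 ± 0.32 (adjusted p = 0.00046) than in LN-LEC and by 1.58 ± 0.34 (adjusted p = 0.0042) than in LN-BEC, and Col5a3 by 2.79 ± 0.38 (adjusted p = 8.3e-05) and 1.53 ± 0.39 (adjusted p = 0.0071). The call of Col5a3 between LN-BEC and LN-LEC, 1.26 ± 0.38 (adjusted p = 0.021), was lost without LN-LEC replicate 2, LN-BEC replicate 1 or LN-BEC replicate 3 (adjusted p between 0.059 and 0.078), and that of Col5a2, 0.56 ± 0.32 (adjusted p = 0.21), appeared without LN-BEC replicate 2 (0.85 higher in LN-BEC, adjusted p = 0.021). Mesothelial markers summed to 1512, 587 and 1817 normalized counts in D-LEC replicates 1, 2 and 3, and Col5a2 and Col5a3 were highest in replicate 1. The libraries of LN-BEC and D-LEC had the same order in Col5a2 as in the fibroblast markers, and those of LN-LEC in Col5a3. The part of fibroblast, mesothelial and muscle RNA in these levels was not tested. Col5a1, the most common type V chain, had means of 383 ± 75.7, 472 ± 41.8 and 339.6 ± 149 in the same order of populations. It was called in no comparison with all libraries. Without D-LEC replicate 1 it was lower in D-LEC than LN-BEC by 0.89 (adjusted p = 0.0015) and than LN-LEC by 0.61 (adjusted p = 0.013).

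Of the 11 fibrillar chains, 2 were higher in LN-LEC and 1 in LN-BEC, 2 in LN-LEC and 3 in D-LEC, and 3 in D-LEC and 1 in LN-BEC, with 8, 6 and 7 not called. As shares of the chains these were 18.2% and 9.09%, 18.2% and 27.3%, and 27.3% and 9.09%, beside 19.8% and 18.4%, 24.1% and 21.7%, and 22.5% and 25.6% of all genes. Median log2 fold changes were -0.34, -0.39 and -0.07 for LN-LEC over LN-BEC, LN-LEC over D-LEC and D-LEC over LN-BEC. Col2a1, Col11a1 and Col11a2, chains known from cartilage, had means of at most 1.55, 7.6 and 32.2 normalized counts. Col11a2 was higher in D-LEC than LN-BEC by 1.39 ± 0.41 (adjusted p = 0.013) and than in LN-LEC by 0.98 ± 0.37 (adjusted p = 0.046), the latter a call that was lost without LN-LEC replicate 1, 2 or 3, LN-BEC replicate 1 or any D-LEC library (adjusted p between 0.057 and 0.11). As a share of the summed per-kb level of all collagens, fibrillar chains made up 20.8, 17.9, 14.2 and 17% in the LN-LEC libraries, 7.06, 2.57 and 5.8% in LN-BEC and 13.2, 6.66 and 9.54% in D-LEC. LN-LEC was above both (exact permutation p = 0.0571 each, the smallest possible), and D-LEC and LN-BEC overlapped (p = 0.2). The sum of the fibrillar chains itself was 755 to 1320 per kb (LN-LEC), 474 to 1280 (LN-BEC) and 542 to 1530 (D-LEC).

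The fibril-associated collagens with interrupted triple helices (FACIT) sit on the surface of fibrils and link them to other matrix. Among the member classes they had the largest share of chains called higher in LN-LEC. These shares were 44.4% over LN-BEC and 55.6% over D-LEC, against 19.8% and 24.1% of all genes, with 11.1% higher in D-LEC than LN-LEC. Of 9 chains, 4 were higher in LN-LEC than LN-BEC and 0 lower, against 19.8% and 18.4% of all genes, with edgeR's adjusted p. Also with its unadjusted p and with DESeq2, 0 were lower. The 0 comes from 9 chains, of which Col9a1, Col9a2, Col9a3, Col19a1 and Col20a1 had means of at most 54.2 normalized counts. Col12a1, found where collagen fibres bear tension, had normalized counts of 9844, 9157, 8763 and 9167 (LN-LEC), 199.6, 163 and 488 (LN-BEC) and 50.5, 22 and 43.8 (D-LEC). The lowest LN-LEC library was above the highest of the others by a wide margin. The excess was 5.05 ± 0.42 (adjusted p = 1.7e-05) over LN-BEC and 7.92 ± 0.51 (adjusted p = 2.7e-06) over D-LEC, folds of 33.1 and 243. In LN-BEC, replicate 3 was the highest in Col12a1 and in lymphatic markers, whose part in this level was not tested.

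Col14a1, which binds fibrils through decorin, had normalized counts of 1817, 1676, 1324 and 1303 (LN-LEC), 389.5, 133 and 281 (LN-BEC) and 332, 156 and 339.6 (D-LEC). LN-LEC exceeded LN-BEC by 2.53 ± 0.39 (adjusted p = 0.00081) and D-LEC by 2.49 ± 0.39 (adjusted p = 0.00078), without overlap. Col16a1, a FACIT of skin and cartilage, had 811, 703, 651 and 694 (LN-LEC), 144, 95.1 and 178 (LN-BEC) and 246, 209 and 203 (D-LEC). It too was separate in LN-LEC, by 2.39 ± 0.18 (adjusted p = 1.4e-07) and 1.73 ± 0.17 (adjusted p = 2.2e-06), and was higher in D-LEC than LN-BEC by 0.66 ± 0.19 (adjusted p = 0.01).

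Col22a1, known from tissue junctions such as that of muscle and tendon, had normalized counts of 468, 536, 542 and 429 (LN-LEC), 1.75, 0.865 and 21 (LN-BEC) and 1.26, 1 and 0 (D-LEC). LN-LEC held nearly all of its RNA. It exceeded LN-BEC by 6.07 ± 0.63 (adjusted p = 3.1e-05), a fold of 67.4, and the 21 counts of LN-BEC replicate 3 were most of what that population had. In D-LEC 2 fragments were counted in all against 1944 in LN-LEC, a ratio of 723 per size factor with a 95% counting interval of 200 to 5970 (adjusted p = 1.2e-05). Col19a1 was at 0 in all D-LEC libraries and low in the others, with means of 4.15 ± 1.3 in LN-LEC and 4.95 ± 4.83 in LN-BEC. Set against 3 counts per D-LEC library, it was at least 1.34-fold higher in LN-LEC (adjusted p = 0.013) and at least 1.6-fold higher in LN-BEC (adjusted p = 0.011). The remaining FACIT chains, Col9a1, Col9a2, Col9a3 and Col20a1, had means of at most 54.2 normalized counts. With all libraries only Col20a1 of these was called, higher in D-LEC than LN-LEC by 0.98 ± 0.30 (adjusted p = 0.015) and not without D-LEC replicate 3 (0.07). Without LN-LEC replicate 2, Col9a3 was called, higher in D-LEC than LN-LEC (adjusted p = 0.049).

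Type VI collagen forms beaded filaments around cells from Col6a1, Col6a2 and a further chain. The 6 type VI chains summed to 365, 234, 169 and 318 per kb (LN-LEC), 495, 303 and 505 (LN-BEC) and 429, 119 and 192 (D-LEC). The lowest library of each population was also its lowest in the type I and III chains. Col6a1 and Col6a2 were called in no comparison. Col6a3 was higher in LN-BEC than D-LEC by 1.39 ± 0.46 (adjusted p = 0.032) with overlapping libraries, and lost that call without LN-BEC replicate 1 or 3 or D-LEC replicate 2 or 3 (adjusted p between 0.082 and 0.11). Its difference between LN-BEC and LN-LEC, 1.08 ± 0.41 (adjusted p = 0.071), passed the threshold without LN-BEC replicate 2 or D-LEC replicate 1 (0.042 and 0.019).

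Col6a4, an alternative to Col6a3, was present in both lymph node populations and nearly absent from D-LEC. Its normalized counts were 631, 555, 529 and 444 (LN-LEC), 531, 681 and 578 (LN-BEC) and 1.26, 0 and 0 (D-LEC). LN-LEC and LN-BEC overlapped, with a difference of 0.13 ± 0.15 (adjusted p = 0.53) in the direction of LN-BEC. In D-LEC 1 fragment was counted in all libraries together, against 2099 for LN-LEC and 1944 for LN-BEC. The ratio was 1560 (95% counting interval 280 to 61700) for LN-LEC and 1790 (322 to 70900) for LN-BEC, with adjusted p-values of 8e-11 and 6.5e-11. Its neighbour Col6a5, 29674 bases away on chromosome 9, went the other way at a low level, with 66.2 ± 11.5 normalized counts in D-LEC, 23.1 ± 9.95 in LN-LEC and 21.2 ± 7.89 in LN-BEC, and was higher in D-LEC by 1.52 ± 0.38 (adjusted p = 0.0049) and 1.64 ± 0.41 (adjusted p = 0.005).

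Among the network-forming short chains, Col8a1 and Col8a2 encode type VIII collagen, which lies beneath vascular and corneal endothelium. Col8a1 had normalized counts of 33.7, 25.4, 33.9 and 37.1 (LN-LEC), 1475, 976 and 1119 (LN-BEC) and 267, 336 and 451 (D-LEC). All populations were separate. LN-BEC exceeded LN-LEC by 5.15 ± 0.22 (adjusted p = 9.9e-10) and D-LEC by 1.76 ± 0.20 (adjusted p = 6.4e-06), and D-LEC exceeded LN-LEC by 3.39 ± 0.22 (adjusted p = 3.5e-08). Col8a2 had 31.1, 34.3, 20.4 and 33.3 (LN-LEC), 13.1, 2.59 and 8.4 (LN-BEC) and 71.9, 45.1 and 70.2 (D-LEC). It was lowest where Col8a1 was highest: D-LEC exceeded LN-BEC by 2.93 ± 0.48 (adjusted p = 0.0002) and LN-LEC exceeded LN-BEC by 1.89 ± 0.47 (adjusted p = 0.0051). The difference of Col8a2 between D-LEC and LN-LEC, 1.04 ± 0.40 (adjusted p = 0.048), lost its call when any LN-LEC library or D-LEC replicate 1 or 3 was left out (adjusted p between 0.065 and 0.14). Col10a1, the chain of hypertrophic cartilage, had means of at most 26.4 normalized counts and was not called.

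Transmembrane collagens span the plasma membrane with a short cytoplasmic tail, and 2 of them were strong population genes. Col23a1 had normalized counts of 337, 341, 379.9 and 391 (LN-LEC), 96.3, 32.9 and 73.5 (LN-BEC) and 9138, 8360.1 and 8397 (D-LEC). D-LEC was separate by far, with folds of 23.4 over LN-LEC and 127 over LN-BEC, and LN-LEC was separate from LN-BEC. The log2 differences were 4.55 ± 0.22 (adjusted p = 3.5e-08) and 6.99 ± 0.29 (adjusted p = 7.1e-09) for D-LEC and 2.45 ± 0.25 (adjusted p = 1.6e-05) for LN-LEC over LN-BEC. At 1520 ± 77.5 per kb it was the most abundant collagen of D-LEC after the main type IV chains. The mesothelial and muscle markers of D-LEC were lowest in replicate 2 (mesothelium, 587) and replicate 1 (muscle, 1118), and the Col23a1 values of these libraries were 8360.1 and 9138, beside 8397 in replicate 3. The part of those cells in the D-LEC levels was not tested.

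Col13a1, a transmembrane collagen of cell adhesion sites, was led by LN-BEC. Normalized counts were 42.8, 43.2, 40.7 and 32.1 (LN-LEC), 1446, 1637 and 1302 (LN-BEC) and 69.4, 82.2 and 86.8 (D-LEC). LN-BEC exceeded LN-LEC by 5.21 ± 0.14 (adjusted p = 1.7e-11) and D-LEC by 4.2 ± 0.15 (adjusted p = 6.6e-11), folds of 37.1 and 18.3, and D-LEC exceeded LN-LEC by 1.02 ± 0.16 (adjusted p = 0.00012). Col25a1, known from neurons, was low, with 9.07, 7.62, 6.78 and 5.03 (LN-LEC), 26.3, 15.6 and 12.6 (LN-BEC) and 0, 4.01 and 2.48 (D-LEC), and was called only for LN-BEC over D-LEC, by 2.94 ± 0.73 (adjusted p = 0.0046). Col17a1, of the hemidesmosome, had means of at most 29.3 normalized counts and was higher in LN-BEC than LN-LEC by 1.92 ± 0.52 (adjusted p = 0.0098) and than in D-LEC by 1.77 ± 0.56 (adjusted p = 0.019). Both calls were lost without LN-BEC replicate 1 (0.06 and 0.087), and the latter also without D-LEC replicate 2 (0.066).

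Col28a1, a chain related to type VI collagen that is known from peripheral nerve, had normalized counts of 6.48, 6.35, 9.05 and 8.17 (LN-LEC), 115, 109 and 89.3 (LN-BEC) and 0, 0 and 0.826 (D-LEC). LN-BEC exceeded LN-LEC by 3.74 ± 0.35 (adjusted p = 1.3e-06). The D-LEC libraries held 1 fragment in all against 342 in LN-BEC, a ratio of 316 with a 95% counting interval of 56.3 to 12500 (adjusted p = 7.9e-08), and against 31 in LN-LEC, a ratio of 23.1 with an interval of 3.84 to 940 (adjusted p = 0.00023). The sums of 4 Schwann cell markers, 179 to 635 in LN-BEC, 135 to 331 in LN-LEC and 123 to 259 in D-LEC, overlapped between all populations. Their part in the Col28a1 levels was not tested. Col7a1, the anchoring fibril collagen, had means of at most 34.1 normalized counts and was called in no comparison with all libraries. Without LN-LEC replicate 3 or LN-BEC replicate 3 it was higher in LN-LEC than D-LEC (adjusted p = 0.025 and 0.045). Over the 24 other collagens, 6 were higher in LN-LEC and 4 in LN-BEC, 7 in LN-LEC and 6 in D-LEC, and 4 in D-LEC and 9 in LN-BEC. The shares were 25% and 16.7%, 29.2% and 25%, and 16.7% and 37.5%, where all genes gave 19.8% and 18.4%, 24.1% and 21.7%, and 22.5% and 25.6%. Median log2 fold changes were -0.17, 0.34 and -1.27 for LN-LEC over LN-BEC, LN-LEC over D-LEC and D-LEC over LN-BEC.

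**Figure D5:**
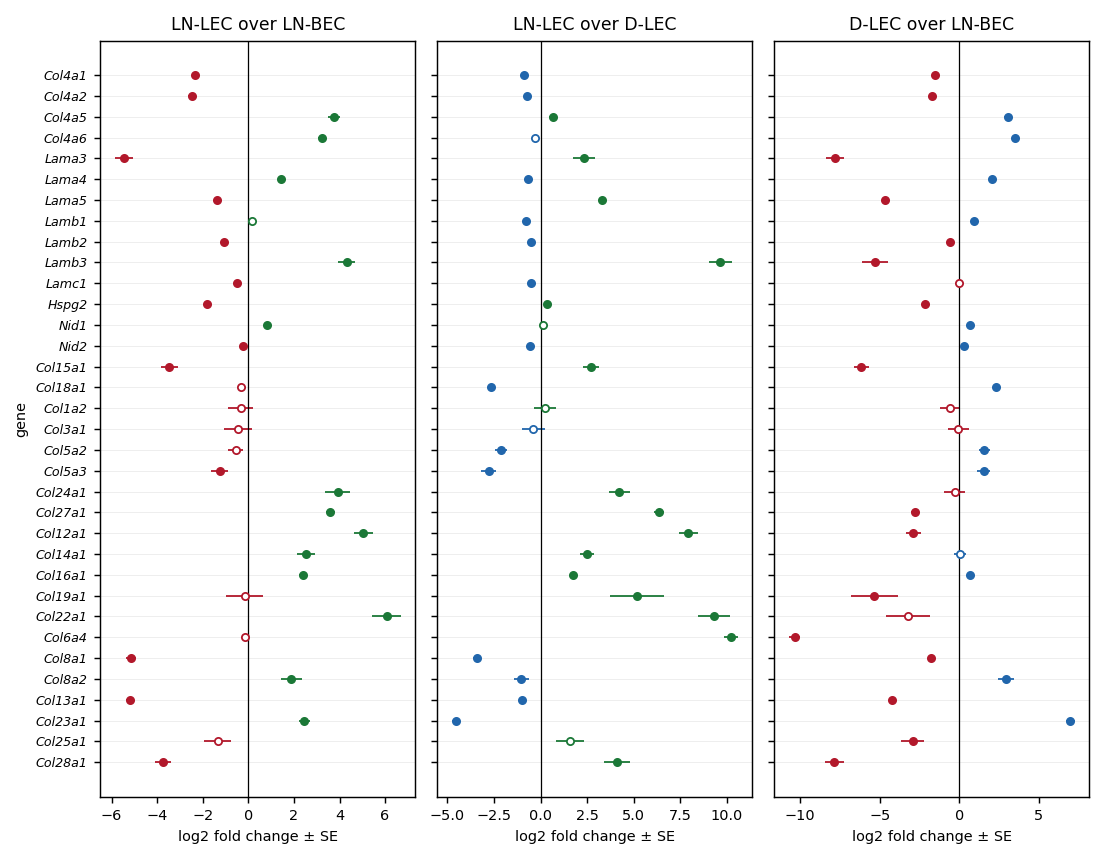
Log2 fold change ± SE of the edgeR fit for 34 members in the 3 comparisons, coloured by the population with the higher value, with filled points for an adjusted p under 0.05 and open points otherwise; the panels have separate axes. The fitted values of Lamb3, Col22a1, Col19a1, Col28a1 and Col6a4 against D-LEC rest on 2 fragments or fewer and depend on the prior count. Col12a1, Col22a1 and Lamb3 lie far to the LN-LEC side, and Col13a1, Lama3 and Col8a1 to the LN-BEC side of the first panel.

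Enzymes that modify collagen chains, listed as part of the pathway, were called in both directions. Of 28 tested, 9 were higher in LN-LEC and 3 in LN-BEC, 9 in LN-LEC and 9 in D-LEC, and 10 in D-LEC and 8 in LN-BEC, with median log2 fold changes of 0.18, 0.15 and 0.19 for LN-LEC over LN-BEC, LN-LEC over D-LEC and D-LEC over LN-BEC. The called shares were 32.1% and 10.7%, 32.1% and 32.1%, and 35.7% and 28.6%, with 19.8% and 18.4%, 24.1% and 21.7%, and 22.5% and 25.6% over all genes. P4hb, a subunit of prolyl 4-hydroxylase, and Serpinh1, the collagen chaperone HSP47, had the highest counts of the list, which are not scaled to length. P4hb had 11095 ± 454 (LN-LEC), 11869 ± 1077 (LN-BEC) and 9403 ± 542 (D-LEC) normalized counts, and Serpinh1 8029 ± 515, 9924 ± 324 and 7266 ± 1429. Loxl2 and Leprel2 were among the enzymes with the largest called differences, and LN-BEC was the lowest population for each. Loxl2, a lysyl oxidase that crosslinks type IV collagen, had 916 ± 70, 84.5 ± 11.4 and 1919.5 ± 495 and was higher than in LN-BEC by 3.46 ± 0.17 (adjusted p = 2.8e-09) in LN-LEC and 4.50 ± 0.18 (adjusted p = 2.3e-10) in D-LEC. Leprel2, a prolyl 3-hydroxylase, had 1627 ± 128, 205 ± 62.9 and 2550.2 ± 199.8, with differences of 3.01 ± 0.18 (adjusted p = 3e-08) and 3.63 ± 0.19 (adjusted p = 4.9e-09). Mia3, which exports large collagens from the endoplasmic reticulum, was listed at 0 in every library.

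Other proteins of the basement membrane were called in both directions alike. Of 15, 5 were higher in LN-LEC and 5 in LN-BEC, 5 in LN-LEC and 4 in D-LEC, and 4 in D-LEC and 4 in LN-BEC, with medians of 0.42, 0.01 and 0.41. As shares these were 33.3% and 33.3%, 33.3% and 26.7%, and 26.7% and 26.7%. Over all genes they were 19.8% and 18.4%, 24.1% and 21.7%, and 22.5% and 25.6%. The shares between D-LEC and LN-BEC were close to those of all genes, and each rests on 4 or 5 of 15 genes. Sparc, a collagen-binding protein, had 46391 ± 1634 normalized counts (LN-LEC), 94205 ± 5052 (LN-BEC) and 4115 ± 1742 (D-LEC). It was higher in LN-BEC than D-LEC by 4.53 ± 0.27 (adjusted p = 1.3e-07) and in LN-LEC than D-LEC by 3.52 ± 0.25 (adjusted p = 7.4e-07). Tinagl1 had 3809 ± 693, 13625 ± 852 and 2731 ± 269 and was highest in LN-BEC, by 1.82 ± 0.12 (adjusted p = 5e-08) over LN-LEC. Frem2, of the Fraser complex, was higher in D-LEC than LN-BEC by 4.00 ± 0.64 (adjusted p = 0.00015).

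Of 6 receptors for collagens and laminins other than integrins that were tested, 1 was called between LN-LEC and LN-BEC, higher in LN-BEC, 3 were higher in LN-LEC and 1 in D-LEC, and 1 was higher in D-LEC and 2 in LN-BEC, numbers too small to set against the share of all genes. Bcam, a receptor for the Lama5 chain, had 674 ± 98.6 normalized counts (LN-LEC), 3535 ± 239 (LN-BEC) and 369.6 ± 68.7 (D-LEC), the same order of populations as Lama5 itself. Its differences were 2.37 ± 0.13 (adjusted p = 9.2e-09) between LN-BEC and LN-LEC and 0.88 ± 0.14 (adjusted p = 0.00016) between LN-LEC and D-LEC. Ddr2, a receptor kinase for fibrillar collagen, had 3390.3 ± 372, 2897 ± 330.4 and 291 ± 118. It was lower in D-LEC than LN-LEC by 3.57 ± 0.26 (adjusted p = 1.8e-06) and than in LN-BEC by 3.33 ± 0.27 (adjusted p = 3e-06), with a difference of 0.24 ± 0.23 (adjusted p = 0.44) between the lymph node populations. Medians over the receptors were 0.05, 0.63 and -0.52 for LN-LEC over LN-BEC, LN-LEC over D-LEC and D-LEC over LN-BEC.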

How the data were processed

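RNA of LN-LEC (4 libraries), LN-BEC (3) and D-LEC (3) had been amplified with a kit that does not mark strand and sequenced in pairs on an Illumina instrument. Per the submitters' processing notes and the file header, the authors aligned reads to mm9 with STAR and counted with featureCounts 1.4.4. The deposited values are raw counts of fragments per gene, with strand ignored and multiply aligned fragments, and those over 2 genes, left out, which lowers the counts of near-identical or overlapping genes. The columns were matched to libraries by the identifiers in the sample descriptions, and replicates are numbered in accession order.

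The members and gene lists were chosen with earlier results of these data known. Of the table's rows, 3827 that name no characterised gene (RIKEN, Gm and similar) stayed out of the tests. Genes with a mean of at least 1 normalized count in a population (15324) were fitted with edgeR 4.0.16 (limma 3.58.1, R 4.3.3; TMM factors, robust quasi-likelihood F test, 1 mean per population over all 10 libraries, prior count 0.125), and p-values were adjusted by Benjamini-Hochberg within each comparison. The SE is the log2 fold change divided by the root of F. Levels are counts divided by DESeq2 1.42.0 size factors, also per kb of exon. Chain shares were compared by exact two-sided permutation tests over libraries (Python 3.11.15, scipy 1.17.1) and adjusted over 18 tests. Each library is a pool of animals, so p-values describe pools, and no batch, sex or pairing is labelled. Totals of 22429940 to 48906070 fragments set the precision, and the counting intervals cover counting error only, since amplified fragments carried no molecular identifiers.

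Values per library are given for the members (35) with a mean of at least 1000 normalized counts in a population or a called fold of at least 5, and other members by means, ranges and calls. Of these, 1 member is counted but its values are not reported here. Of each gene list (collagen enzymes, other basement membrane proteins, receptors, and markers of lymphatic, blood and all endothelium, fibroblasts, pericytes, skeletal muscle, mesothelium, haematopoietic and Schwann cells), the 2 genes with the highest counts and the 2 with the largest called change could be named. The enzyme list held 34 symbols, of which 29 were rows of the table, and the others were current symbols of genes listed under older ones. Exons and starts were read from the annotation columns of the count table and from the mm9 genome. On simulated counts (LN-LEC against LN-BEC, 200 of 15324 genes changed), the fit recovered 73% of 2-fold and 94% of 8-fold changes, and 3.47% of its calls were false. The simulation gave every gene the same dispersion and changed few genes. Its rates therefore need not hold for these data, least for genes that varied more between libraries, such as Col1a2 and Col3a1. Alternatives were the DESeq2 Wald test, DESeq2 size factors, no filter, a length-scaled filter (FPKM of at least 1), a prior count of 2, the compared populations alone, a fold of at least 5, levels not divided by length, and each library left out.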

Additional observations from a re-analysis of the deposited data

Results flagged for a closer look

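In the 4 LN-LEC libraries, 41 values or shares were examined for a library set apart from the others, and 3 had a gap to the nearest library, relative to the whole range, above Dixon's 95% critical value, where chance gives about 1 in 20. Col18a1, the chain of type XVIII collagen, stood at 1584 normalized counts in LN-LEC replicate 4, above the other libraries (ratio of gap to range 0.884). Col4a5 stood at 2212 normalized counts in LN-LEC replicate 3, below the others (0.905). The share of Lamb2 in the laminin beta chains was 32.1% in LN-LEC replicate 4, below the others (0.841).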

How the results depend on the processing

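No result on a member given with values per library changed direction under any alternative: of 1770 alternative values, 1732 kept their side of the threshold, 30 lost the call and 8 gained it, in 7 and 4 of the 105 results. With a fold of at least 5 required, 7 members were higher in LN-BEC than LN-LEC, 4 in D-LEC than LN-LEC, 5 in D-LEC than LN-BEC and 11 in LN-BEC than D-LEC, by construction. Leaving out 1 library at a time gave 14 members higher in LN-LEC than LN-BEC each time and 13 to 18 the other way, 14 to 17 higher in LN-LEC than D-LEC and 14 to 19 the other way, and 14 higher in D-LEC than LN-BEC each time and 17 to 20 the other way. Without division by exon length, the differences in share, in percentage points, became 49.3 (LN-LEC minus LN-BEC), -20.7 (LN-LEC minus D-LEC) and 70 (D-LEC minus LN-BEC) for Lama4, 20.4 (LN-LEC minus D-LEC) and -53.5 (D-LEC minus LN-BEC) for Lama5, and -35.6 (LN-LEC minus LN-BEC) and -10.1 (LN-LEC minus D-LEC) for type IV collagens. The difference of LN-LEC and D-LEC in the Lamb2 share ranged from -0.41 to 2.05 with 1 library left out and was negative, at -0.202, -0.019 and -0.41, without LN-LEC replicates 1, 2 and 3. Without both LN-LEC replicate 4 and LN-BEC replicate 3, Col4a5 (LN-LEC over D-LEC), Col5a3 (LN-BEC over LN-LEC), Col19a1 (LN-BEC over D-LEC) and Nid2 (D-LEC over LN-BEC) were no longer called. No paired analysis was possible because the labels carry no replicate numbers. Low counts, 6 or 7 libraries per comparison and pooled animals limit what these data can show, and folds against D-LEC libraries with 2 or fewer fragments have wide counting intervals.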
